A study of Mus musculus with 14 samples.

Results

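Round spermatids (RS), the haploid germ cells that follow meiosis, were compared between mice labelled Setd2KO and wild-type (WT) mice by poly(A) RNA-seq. All autosomal genes that reached a mean of at least 1 FPKM in RS WT or in RS Setd2KO were followed, which were 9742 of the 20626 genes in the expression tables (19725 of them autosomal). Of these, 8554 reached 1 FPKM in both groups, 540 in RS WT alone and 648 in RS Setd2KO alone. Just inside the limit, 221 genes had a higher group mean of 1 to 1.1 FPKM, and just under it 275 genes had 0.9 to 1 FPKM. The unit FPKM counts sequenced fragments by transcript length and library size, so levels can be compared between genes per length.

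The cells came from testes of adult C57BL/6J mice and were separated by fluorescence-activated sorting after staining with Hoechst dye and propidium iodide. Each RS group had 2 RNA libraries, and pachytene and diplotene spermatocytes (PD) of both genotypes, with 2 libraries each, entered the same fit. H3K36me3 ChIP-seq gave 1 peak list per cell type and genotype. The labels give neither the deleted part of Setd2 nor the way it was deleted, and are silent on whether replicate libraries are from different animals. All p-values therefore measure spread among these libraries, which may be technical.

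Setd2 encodes the methyltransferase that places trimethylation on lysine 36 of histone H3 over the bodies of transcribed genes. After meiosis, round spermatids transcribe genes for the acrosome, the sperm tail and chromatin compaction, and store many of the messages until later steps. Histones are then replaced by transition proteins and these in turn by protamines, which pack the sperm nucleus.

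The RS libraries held 84.9 and 50.8 (WT) and 58.0 and 66.0 (Setd2KO) megareads, as recovered from the FPKM values, which makes a single read per kilobase equal to 0.0118 to 0.0197 FPKM. The log2 levels of the 2 replicates had r = 0.997 over genes in RS WT and r = 0.997 in RS Setd2KO; genes are not independent replicates. The 10 round spermatid markers, among them Acrv1 and Spaca1 of the acrosome and Tssk1 of the sperm kinases, summed to 1641 and 1548 FPKM in RS WT and 1141 and 1467 FPKM in RS Setd2KO, against 74.5 and 107 FPKM in PD WT, so both RS groups carried the labelled identity. Setd2 itself read 5.24 and 5.58 FPKM (WT) against 12.1 and 8.67 FPKM (Setd2KO), a rise of 0.81 ± 0.15 (SE) on the log2 scale with limma adjusted p = 0.0016. A gene-level value checks the genotype only if it covers the deleted part, which the labels do not give. In the peak lists, 7115 of the followed genes overlapped an H3K36me3 peak in RS WT and 558 did so in RS Setd2KO.

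With limma on log2(FPKM + 1) and adjusted p under 0.05, 2104 genes (21.6%) were higher and 2348 genes (24.1%) lower in RS Setd2KO. Over all 11452 genes tested the shares were 20.9% higher and 21.8% lower. The median change was -0.0029. Most changes were small, since 194 genes rose and 417 genes fell by at least 2-fold. The 2 libraries of one group lay on 1 side of both libraries of the other for 7795 genes (80.0%). The calls fell to 2728 without RS WT replicate 1 and to 2803 without RS Setd2KO replicate 1. In bulk samples such as these, fewer cells of a type and less RNA per cell cannot be told apart.

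The largest falls in FPKM were in the genes that compact sperm chromatin. All 5 protamine and transition protein genes fell, with a median log2 change of -1.78. Tnp1, a transition protein gene, measured 1067 and 948 FPKM in the wild-type libraries, against 302 and 283 FPKM in the knockout libraries. Tnp2, which encodes the other transition protein, was at 1067 and 933 FPKM against 301 and 282 FPKM. Neither knockout library came near the wild-type level of either gene, and the log2 changes were -1.78 ± 0.19 (SE, adjusted p = 4.58e-05) and -1.77 ± 0.19 (adjusted p = 3.82e-05).

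Prm1, the protamine shared by mammals, was at 941 and 912 FPKM against 238 and 219 FPKM and changed by -2.02 ± 0.18 (SE, adjusted p = 1.19e-05). Prm2, a protamine made as a precursor, was at 847 and 1013 FPKM against 244 and 222 FPKM and changed by -1.99 ± 0.21 (adjusted p = 4.11e-05). Among the genes followed, only Ldhc, the testis lactate dehydrogenase, had a higher mean in RS WT than these 4 genes. Prm3, whose protein stays in the cytoplasm, fell less, from 166 and 155 FPKM to 82.0 and 94.7 FPKM (-0.86 ± 0.22, adjusted p = 0.00844). Its call was lost without RS WT replicate 1 (adjusted p = 0.0606) and without RS Setd2KO replicate 1 (adjusted p = 0.0645). Read numbers recovered from the FPKM show that these values rest on many reads: Prm1 had 31981 and 18551 reads in RS WT and 5518 and 5779 reads in RS Setd2KO.

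Tnp2, Prm3, Prm2 and Prm1 lie side by side on the minus strand of chromosome 16, between 10788028 and 10796916 of mm9, and Tnp1 lies on chromosome 1 from 73061649 to 73062473. In RS WT, H3K36me3 peaks covered 100% of Prm1 and Prm2, 7.13% of Prm3, 6.52% of Tnp2 and none of Tnp1. In RS Setd2KO none of the 5 genes had a peak. Acrbp, the acrosomal protein that binds proacrosin, was also fully covered in RS WT and uncovered in RS Setd2KO. It was at 310.4 and 283 FPKM against 189.6 and 206 FPKM (-0.58 ± 0.16, adjusted p = 0.0147), and its call was lost without RS WT replicate 1 (adjusted p = 0.109), RS Setd2KO replicate 1 (0.129) or RS Setd2KO replicate 2 (0.0562).

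**Figure D1:**
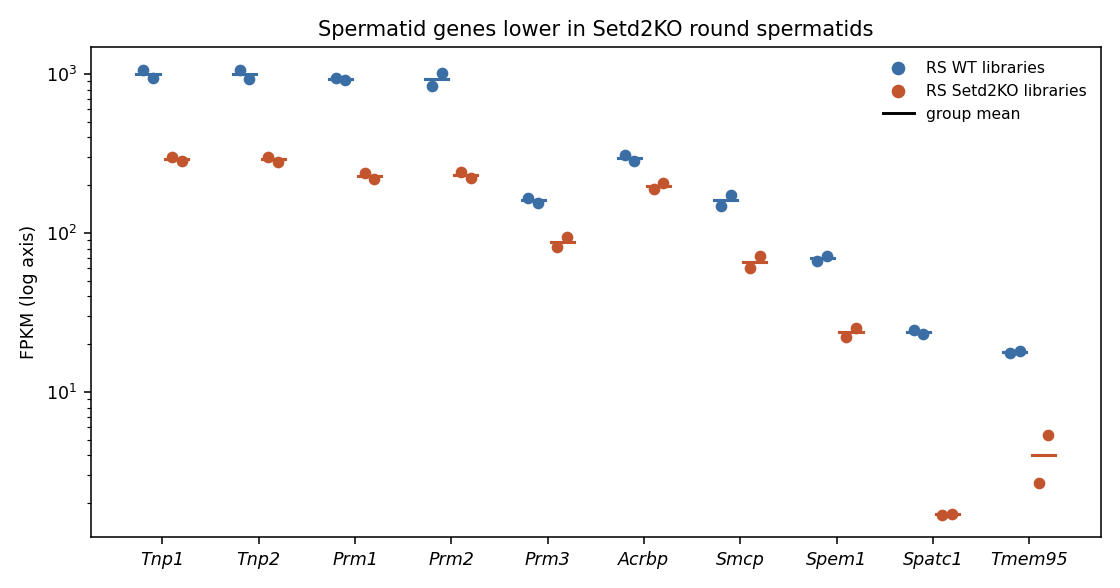
FPKM of 10 spermatid genes on a log axis, with points for the 2 RS WT (blue) and 2 RS Setd2KO (orange) libraries and bars for group means. Both knockout libraries lie under both wild-type libraries in every gene shown, and 80.0% of all genes followed had no overlap between groups. Tnp1 stands at 948 to 1067 against 283 to 302 FPKM.

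The promoters of these genes are shown because the members of the list moved together and spermatid genes are known targets of the cAMP response element (CRE) family of factors. The 120 bases before the start, from RefSeq on GRCm38.p6, are at chr1:73015900-73016019 (- strand) for Tnp1, chr16:10796824-10796943 (- strand) for Prm1, chr16:10790915-10791034 (- strand) for Prm3, chr16:10792106-10792225 (- strand) for Prm2 and chr16:10788656-10788775 (- strand) for Tnp2. Capitals mark matches to the CRE-like word TGANNTCA, to TATAAA, to TTTGAA or to CCAAT, searched on both strands.
Tnp1: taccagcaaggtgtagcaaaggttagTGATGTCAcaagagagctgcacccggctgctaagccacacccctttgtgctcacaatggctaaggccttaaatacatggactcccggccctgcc
Prm1: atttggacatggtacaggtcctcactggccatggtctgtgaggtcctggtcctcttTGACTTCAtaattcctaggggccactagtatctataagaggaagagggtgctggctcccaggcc
Prm3: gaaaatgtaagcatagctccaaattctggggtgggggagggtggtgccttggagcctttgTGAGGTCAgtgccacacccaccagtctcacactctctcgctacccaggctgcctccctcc
Prm2: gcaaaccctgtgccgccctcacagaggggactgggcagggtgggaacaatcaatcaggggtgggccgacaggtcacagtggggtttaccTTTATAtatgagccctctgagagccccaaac
Tnp2: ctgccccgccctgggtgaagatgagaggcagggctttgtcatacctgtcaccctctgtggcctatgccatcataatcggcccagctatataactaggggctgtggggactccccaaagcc
The CRE-like word stood in 3 of the 5, as TGATGTCA at base -94 of Tnp1, TGACTTCA at -64 of Prm1 and TGAGGTCA at -60 of Prm3. In Prm2 a TATA word stood at -31, and in the printed window of Tnp2 none of these words occurs. In windows of 300 bases (250 before the start and 50 after), TGANNTCA was found in 14.3% of the 7585 followed genes that matched the RefSeq table, in 20.4% of the matched genes that fell by at least 2-fold, in 9.03% of those that rose by at least 2-fold and in 14.1% of all 32851 promoters in the table. A gene counted where any of its promoters held the word, with a mean of 1.28 promoters per gene. Over all calls, TGANNTCA was found in 16.0% of the lower and 12.5% of the higher genes. The full CRE word TGACGTCA was found in 3.89% of all matched genes followed. It was found in 2.19% of those that fell and 0.69% of those that rose by at least 2-fold. A match is a description of the letters only.

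Summed levels of markers of other steps and cell types are given beside these changes. Counts of markers called are read beside 24.1% lower and 21.6% higher over all genes followed. The 11 markers of elongating and condensing spermatids, which include the 5 genes above, summed to 5306 and 5304 FPKM in RS WT and 1798 and 1911 FPKM in RS Setd2KO, and 8 of the 10 followed were lower (5 without RS Setd2KO replicate 1). The 11 spermatocyte markers summed to 189.4 and 186.3 FPKM in RS WT and 291 and 259 FPKM in RS Setd2KO, or 24.4% and 24.0% of the mean PD WT sum against 37.4% and 33.4%; 4 were higher, 1 lower and 6 not called. For 24 autosomal genes chosen as at least 20-fold lower in RS WT replicate 1 than in PD WT, a choice that fixes the value of that library, the median level was 4.08% of PD WT in RS WT replicate 2 and 5.42% and 4.84% in the RS Setd2KO libraries. The 5 peritubular myoid markers summed to 2.18 and 3.29 FPKM in RS WT and 10.7 and 9.68 FPKM in RS Setd2KO. The Sertoli markers summed to 4.05 and 6.41 against 11.7 and 10.0 FPKM, with 6 of 9 under 1 FPKM in every RS library, so the sums of these 4 lists did not overlap between the groups. The sums overlapped for the macrophage markers (2.24 and 4.37 against 4.798 and 3.44 FPKM) and for the erythrocyte and endothelium markers (2.23 and 2.87 against 1.86 and 2.44 FPKM). The Leydig cell markers summed to 9.69 and 5.13 against 10.4 and 14.8 FPKM, and the spermatogonia markers, of which Dmrtb1 makes up most, to 154.5 and 179.6 against 209 and 209.8 FPKM. The Leydig, spermatogonia and round spermatid sums did not overlap between the groups either. Of all single genes followed, 80.0% did not overlap, so a lack of overlap is not particular to these lists. The part of other cells or of a shift in spermatid steps in the results was not tested.

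Lists of genes for the later building of the sperm are given next, each to be read beside the 24.1% lower and 21.6% higher of all genes followed. In the histone exchange list 5 of 25 genes fell (20.0%) and 3 rose (12%), with a median of 0.11. Of the 5, H2afb1, a short H2A variant of the testis, was at 53.5 and 48.0 FPKM against 20.9 and 22.8 FPKM (-1.18), Tssk6, a sperm kinase needed for the exchange, changed by -1.06, and H1fnt, a spermatid linker histone, by -0.93. Mdc1, a scaffold of the DNA damage response, rose by 0.79. The list had 7 higher and 5 lower genes with upper-quartile scaling, 1 higher when any RS library was left out, and 3 lower genes without RS Setd2KO replicate 1.

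In the acrosome list 10 of 35 genes fell and 4 rose, with a median of -0.31. Ccin, a calyx protein of the sperm head, was at 61.3 and 60.1 FPKM against 31.4 and 38.2 FPKM (-0.79 ± 0.17, adjusted p = 0.0031). The count of lower genes dropped to 2 without RS Setd2KO replicate 1 and to 4 without RS WT replicate 1. In the manchette and head shaping list 10 of 35 fell and 3 rose. Spem1, needed to shed the cytoplasm, was at 66.8 and 71.6 FPKM against 22.2 and 25.4 FPKM (-1.5, adjusted p = 5.2e-05), and Lmntd1, a lamin-tail protein, changed by -1.54. The lower calls of that list numbered 5 without RS WT replicate 1 and 5 without RS Setd2KO replicate 1.

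The lists of tail, ion transport and kinase genes come next, to be read beside the same shares over all genes followed. Of 24 fibrous sheath and outer dense fibre genes 6 fell and 2 rose. Smcp, a cysteine-rich coat protein of sperm mitochondria, was at 148 and 175 FPKM against 60.1 and 72.2 FPKM (-1.27 ± 0.25, adjusted p = 0.00204). Odf1, the main outer dense fibre protein, was at 279 and 291 FPKM against 141 and 187 FPKM (-0.80); its call was lost without RS WT replicate 1, RS WT replicate 2 or RS Setd2KO replicate 1 (adjusted p from 0.0595 to 0.122). Of 44 axoneme genes 7 fell and 6 rose, with a median of 0.048. Rsph9, a radial spoke head protein, was at 81.1 and 78.9 FPKM against 23.9 and 24.5 FPKM (-1.69), whereas Dnaic2, an outer arm dynein chain, rose by 0.87. In the CatSper and ion transport list 5 of 23 fell and 1 rose, with Catsper1, a pore subunit of the sperm calcium channel, at 62.9 and 65.2 FPKM against 21.6 and 41.5 FPKM (-1.07). The sperm kinase list had 7 of 24 lower and 3 higher, with Tssk5 at -1.75 and Prkar2a, a regulatory subunit of protein kinase A, at -1.18. Without RS Setd2KO replicate 1 the lower genes numbered 1 in the fibrous sheath list and 1 in the CatSper list, and without RS WT replicate 2 they numbered 2 in each.

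The plot of calls per list, which leaves out the cell type marker lists, has sperm-egg binding and fusion at its lower end. Of its 32 members 16 fell (50%) and 2 rose, beside 24.1% lower and 21.6% higher over all genes followed, and its median was -0.45. Tmem95, a sperm membrane protein needed for fusion, was at 17.6 and 18.04 FPKM against 2.66 and 5.34 FPKM (-1.96 ± 0.20, adjusted p = 2.7e-05). Calr3, a testis calreticulin chaperone, was at 34.4 and 31.1 FPKM against 11.5 and 12.1 FPKM (-1.40). Pdilt, its disulfide isomerase partner, was at 151 and 117 FPKM against 41.4 and 62.2 FPKM (-1.37). All knockout libraries lay under the wild-type libraries for these 3 genes, and 80.0% of all genes followed had no overlap in one direction or the other. Izumo1, the sperm ligand of the egg receptor Juno, was at 82.4 and 76.5 FPKM against 39.7 and 51.0 FPKM (-0.81); its call was lost without RS WT replicate 1 (adjusted p = 0.0861) or RS Setd2KO replicate 1 (0.108). The 2 genes that rose were Adam3 (0.53) and Rnase10, an RNase-like secreted protein, which went from 1.52 and 1.80 FPKM to 5.96 and 6.00 FPKM (1.39). The call of Adam3 was lost when any RS library was left out (adjusted p from 0.0518 to 0.241). Without RS WT replicate 1 the list had 9 lower genes and without RS Setd2KO replicate 1 it had 10. The related ADAM metalloprotease list had 7 of 24 lower and 1 higher, with Adam21 at -1.72 and Adam1a at -1.15, and of the Tex and Spata genes 14 of 46 were lower and 4 higher, with Spata25 at -1.44 and Tex37 at -1.32. The lower ADAM genes numbered 3 without RS WT replicate 1 or RS Setd2KO replicate 1.

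**Figure D2:**
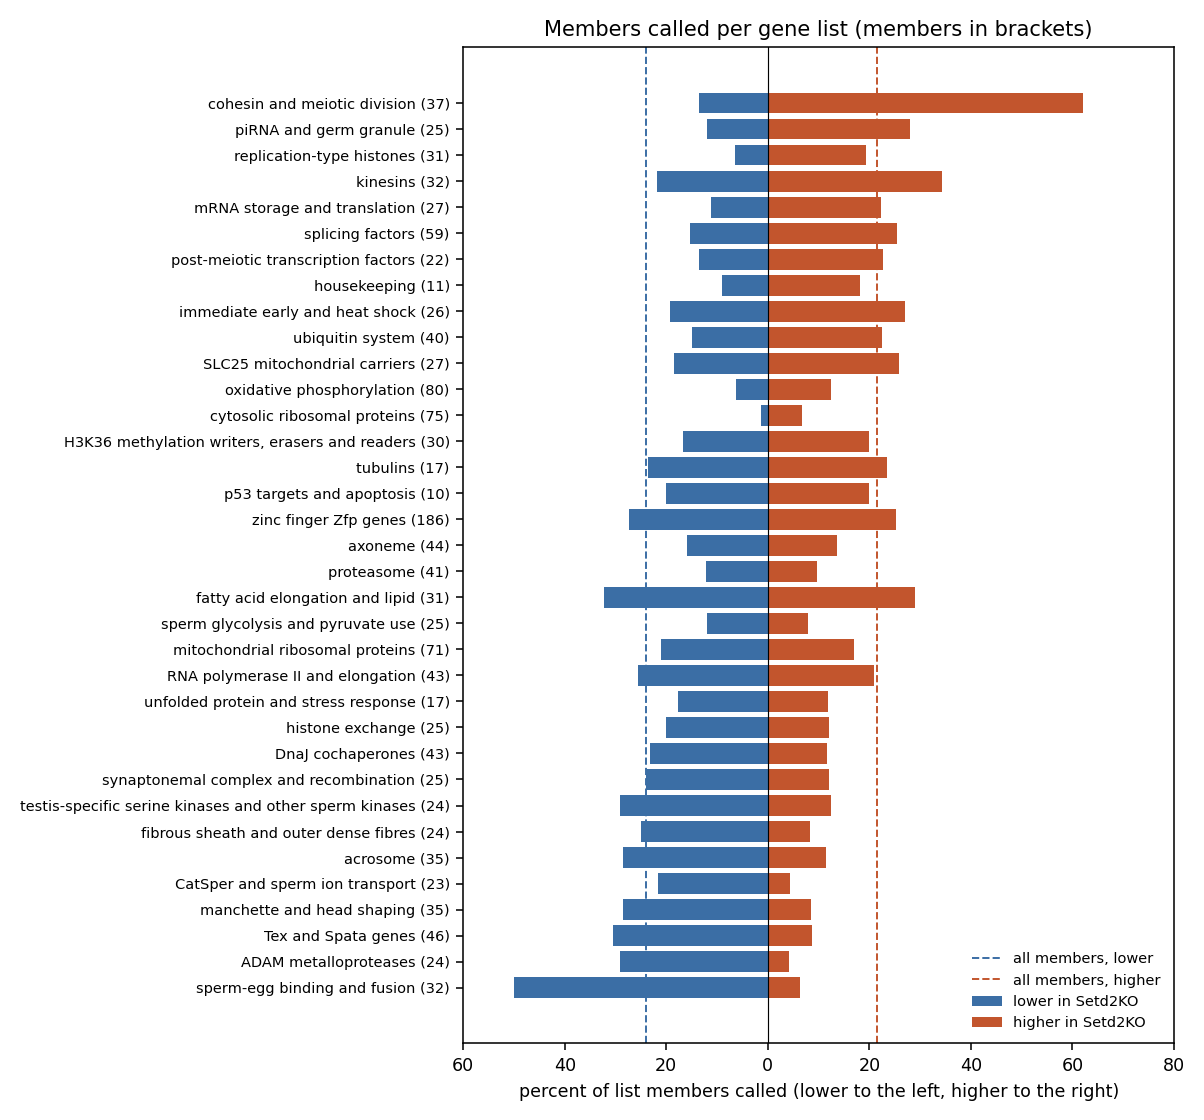
Percent of the members called lower (blue, to the left) or higher (orange, to the right) in RS Setd2KO, for each gene list of 10 or more genes other than the cell type marker lists, with dashed lines for all genes followed, at 24.1% and 21.6%. Cohesin and meiotic division, with 62.2% higher, and sperm-egg binding, with 50% lower, stand at the ends of the lists drawn.

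The opposite pattern was in genes of cell division. In the list of cohesin and meiotic division, whose genes drive the meiotic divisions before the round spermatid forms, 23 of 37 rose (62.2%), 5 fell and the median was 0.48. Over all genes followed, 21.6% rose and 24.1% fell. Ndc80, a kinetochore protein that holds microtubules, was at 4.44 and 3.98 FPKM against 17.9 and 13.1 FPKM (1.65 ± 0.16, adjusted p = 1.79e-05). Cdk1, the kinase of the division, was at 2.38 and 2.83 FPKM against 8.97 and 7.03 FPKM (1.31). Aurka, a spindle kinase, was at 28.2 and 48.1 FPKM against 90.9 and 80.4 FPKM (1.19). The knockout libraries were above both wild-type libraries in each of the 3, where 80.0% of all genes followed had no overlap in one direction or the other. The cyclin gene Ccnb1, the anaphase activator Cdc20 and the centromere motor gene Cenpe also rose, as did Sgol2a, the protector of centromeric cohesin (1.20). Outside this list Nek2, a centrosome kinase, went from 30.6 and 33.9 FPKM to 107 and 87.8 FPKM (1.56), and Mybl1, a transcription factor of meiosis, from 5.05 and 5.83 FPKM to 18.7 and 14.0 FPKM (1.42).

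Not all genes of the list rose. The 5 that fell, named because they are few and after their values were seen, were the cohesin genes Rec8 (-1.16), Rad21 (-0.47), Smc1b (-0.44) and Smc3 (-0.39), and Fzr1 (-0.51), an activator of the anaphase-promoting complex. Rec8, the meiotic kleisin, was at 57.7 and 48.7 FPKM against 19.12 and 28.2 FPKM. The count of higher genes was 14 without RS WT replicate 1 and 13 without RS Setd2KO replicate 1, and the median stayed between 0.45 and 0.53 when any RS library was left out; the falls numbered 1 without either of those libraries. Beside this, 4 of the 11 spermatocyte markers rose, 1 (Spo11, which encodes the enzyme of meiotic DNA breaks, -0.46) fell and 6 were not called. Of 25 synaptonemal complex and recombination genes, 6 fell and 3 rose: Sycp3, Hormad1 and H2afx rose (1.13, 1.30 and 1.05), and Syce2, a central element protein, fell from 41.5 and 36.5 FPKM to 12.9 and 13.1 FPKM (-1.51).

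The promoters of 5 members, picked after their values were seen, follow for contrast with the protamine promoters, at chr10:69352913-69353032 (- strand) for Cdk1, chr4:118437344-118437463 (- strand) for Cdc20, chr13:100786487-100786606 (- strand) for Ccnb1, chr2:172370571-172370690 (- strand) for Aurka and chr17:71526858-71526977 (- strand) for Ndc80 on GRCm38.p6, with the same meaning of capitals.
Cdk1: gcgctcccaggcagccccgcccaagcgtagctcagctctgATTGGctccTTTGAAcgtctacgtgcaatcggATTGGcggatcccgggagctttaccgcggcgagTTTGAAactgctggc
Cdc20: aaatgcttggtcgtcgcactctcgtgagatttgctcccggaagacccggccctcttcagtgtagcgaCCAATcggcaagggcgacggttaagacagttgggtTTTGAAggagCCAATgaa
Ccnb1: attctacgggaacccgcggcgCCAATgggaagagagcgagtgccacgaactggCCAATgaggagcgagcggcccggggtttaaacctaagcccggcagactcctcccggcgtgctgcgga
Aurka: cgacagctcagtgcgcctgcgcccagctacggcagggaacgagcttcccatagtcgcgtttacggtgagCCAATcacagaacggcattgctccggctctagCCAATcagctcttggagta
Ndc80: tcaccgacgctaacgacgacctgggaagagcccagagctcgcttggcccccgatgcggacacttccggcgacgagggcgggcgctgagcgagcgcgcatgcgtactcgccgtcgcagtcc
CCAAT, the word bound by NF-Y, stood in 24 of the 30 matched genes of the list (80.0%), against 43.4% of all matched genes followed and 37.4% of all promoters in the table. TTTGAA, the cell cycle homology element of late cell cycle genes, stood in 11 of the 30 (36.7%), against 15.2% and 17.9%. In the Ndc80 window neither word occurs. The list was counted whole, whether its genes rose or not. Over all genes called, CCAAT stood in 42.8% of the higher and 41.9% of the lower genes. For TTTGAA these shares were 16.5% and 14.2%.

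**Figure D3:**
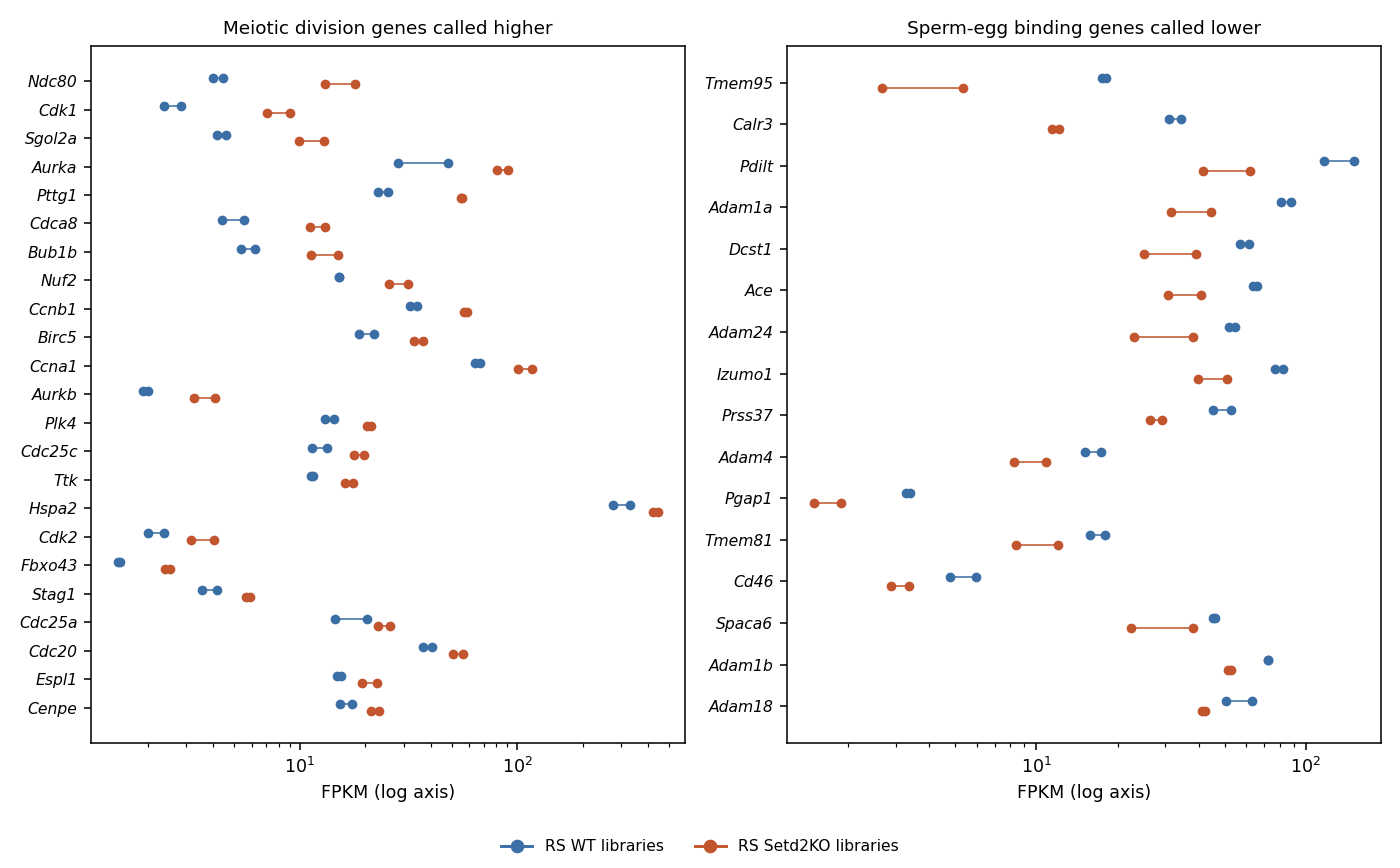
FPKM in each RS WT (blue) and RS Setd2KO (orange) library on a log axis, for the 23 meiotic division genes called higher (left) and the 16 sperm-egg binding genes called lower (right). In each row the 2 points of a color are the libraries of that group.

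Genes that act on messages after meiosis moved in both directions. Of 27 mRNA storage and translation genes 6 rose (22.2%) and 3 fell, beside 21.6% higher and 24.1% lower over all genes. Pabpc6, a poly(A)-binding protein gene, went from 57.3 and 61.2 FPKM to 139.6 and 124 FPKM (1.14) and Cnot7, a deadenylase of the CCR4-NOT complex, rose by 0.84. Pabpc1, the main cytoplasmic poly(A)-binding protein, was at 152 and 212 FPKM against 313 and 333 FPKM (0.84); its call was lost without RS WT replicate 1 (adjusted p = 0.0822). Of 25 piRNA and germ granule genes 7 rose and 3 fell, and Tdrd12, a tudor protein of that pathway, changed by 0.76. Of 22 post-meiotic transcription factor genes 5 rose and 3 fell. Without RS WT replicate 1 the rises numbered 2, 4 and 2 in these lists.

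The next counts are read beside 21.6% higher and 24.1% lower over all genes followed. Of 40 ubiquitin system genes 9 rose and 6 fell; Usp14, a proteasome-bound ubiquitin protease, went from 2.09 and 2.27 FPKM to 5.35 and 5.01 FPKM (0.96). Of 30 writers, erasers and readers of H3K36 methylation, 6 rose and 5 fell, with Pwwp2b, a reader, at -1.03 and Hdgf, a PWWP protein, at 0.85. Of 43 RNA polymerase II and elongation genes 11 fell and 9 rose. Paf1, of the elongation complex of that name, was at 33.0 and 29.0 FPKM against 11.1 and 12.4 FPKM (-1.33), and Ell, an elongation factor, changed by -1.27. Splicing factors had 15 of 59 higher and 9 lower, with Ptbp2 at 1.12 and Sf3b1 at 0.97. Without RS Setd2KO replicate 1 the polymerase list had 5 lower and 3 higher genes and the splicing list 3 lower and 7 higher, and without RS WT replicate 1 the ubiquitin and H3K36 lists each had 3 higher.

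The lists of basic cell machinery follow, beside 21.6% higher and 24.1% lower over all genes. Of 75 cytosolic ribosomal protein genes 5 rose and 1 fell, of 80 oxidative phosphorylation genes 10 rose and 5 fell, and of 41 proteasome genes 4 rose and 5 fell. In the sperm glycolysis list 3 of 25 fell and 2 rose, with Pkm, a pyruvate kinase, at 42.4 and 36.03 FPKM against 11.5 and 16.7 FPKM (-1.43) and Slc2a3, a glucose transporter, at 80.3 and 94.9 FPKM against 216 and 177 FPKM (1.15). Mitochondrial ribosomal protein genes had 15 of 71 lower and 12 higher, led by Mrpl24 (-1.88) and Mrps34 (-1.66). In the immediate early and heat shock list 7 of 26 rose and 5 fell, with the small heat shock gene Hspb1 at 0.81 and 1.09 FPKM against 4.77 and 4.43 FPKM (1.53), and the transcription factor gene Fos at 0.28 and 0.19 FPKM against 2.50 and 2.07 FPKM (1.41). With upper-quartile scaling the mitochondrial ribosomal list had 24 higher and 15 lower genes. The rises in the cytosolic ribosomal and oxidative phosphorylation lists numbered 11 and 24 with that scaling and 1 and 3 without RS WT replicate 1. Of 10 p53 target and apoptosis genes 2 rose and 2 fell.

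The largest log2 changes by rule were in genes of several kinds, among them Spatc1 of the manchette list, Slc2a8 of the glycolysis list and Tecr of the lipid list. Spatc1, which encodes the sperm centrosome protein speriolin, had the largest fall by this rule on the log2(FPKM + 1) scale. It went from 24.5 and 23.2 FPKM to 1.69 and 1.72 FPKM (-3.20 ± 0.11, limma adjusted p = 1.07e-07). Slc2a8, a hexose transporter, was at 12.9 and 11.7 FPKM against 0.96 and 0.81 FPKM (-2.82). Chrne, a subunit of the muscle acetylcholine receptor, was at 22.3 and 19.7 FPKM against 2.05 and 2.20 FPKM (-2.82). Spatc1, Slc2a8 and Chrne were named by a rule that asks for a large change and no overlap between groups. Their distance from the wild type follows from that choice and is not added evidence. Among the other large falls, Tas1r1, a taste receptor subunit, changed by -2.70, Alkbh7, a mitochondrial AlkB homolog, by -2.65, Mxra8, a cell adhesion protein, by -2.46, Nt5c, a nucleotidase, by -2.31, Znrf4, a membrane-bound ubiquitin ligase, by -2.24, and Noxred1 by -2.19. Across 13 alternatives the lowest value of Alkbh7 was -4.01 and that of Spatc1 -3.73, so the order of falls depends on the settings.

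Cd24a, a small surface glycoprotein, had the largest rise by the same rule on the log2(FPKM + 1) scale. It went from 1.61 and 1.38 FPKM to 16.6 and 16.6 FPKM (2.82 ± 0.12, limma adjusted p = 3.1e-07). Tigd2, a transposase-derived gene, went from 1.33 and 1.40 FPKM to 11.6 and 11.5 FPKM (2.41). Tecr, the reductase that closes each round of very long chain fatty acid elongation, was at 10.8 and 9.25 FPKM against 47.2 and 54.2 FPKM (2.23). The same rule named these genes, so their lack of overlap was also fixed by the choice. Hey1, a Notch-responsive repressor, rose by 2.00, Fgf12, an intracellular FGF homolog, by 2.13, Fcgr3, an immunoglobulin receptor, by 1.93, Ppfibp2, a liprin, by 1.73 and Pgf, a vascular growth factor, by 1.72. Dcn, a matrix proteoglycan, and Myl9, a smooth muscle myosin light chain, rose by 2.30 and 2.15. The interval of Dcn differed between tables, and the peritubular myoid markers Acta2 (2.01) and Myh11 (1.38) moved with Dcn and Myl9. Across 13 alternatives the highest value of Dcn was 3.64 and that of Cd24a 3.40, so the order of rises depends on the settings. Rnls, a flavoprotein, had wild-type libraries far apart, at 3.28 and 14.4 FPKM, against 35.3 and 32.3 FPKM (2.10 ± 0.44, adjusted p = 0.003).

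By size of the FPKM difference, the falls after the transition proteins and protamines were in Oaz3, the testis antizyme of ornithine decarboxylase (390.0 and 389 against 179 and 241 FPKM), Dbil5, Gsg1 and Tulp2, and the rises were in Crisp2, Mael (a piRNA pathway protein), Pabpc1, Hsbp1, Adam3 (a sperm surface protein), Hspa2 (a testis heat shock protein), Slc2a3 and Serf1. Hsbp1, a binding partner of heat shock factor, was at 178 and 177 FPKM against 320 and 316 FPKM (0.84). Crisp2, a sperm tail and acrosome protein, was at 560 and 578 FPKM against 830 and 862 FPKM (0.57, adjusted p = 0.040). Of these 12 genes, Gsg1, Tulp2, Crisp2, Mael, Pabpc1, Adam3, Hspa2 and Serf1 lost their calls without RS WT replicate 1, and all but Pabpc1, Hsbp1 and Slc2a3 lost theirs without RS Setd2KO replicate 1. Tulp2, Crisp2, Mael, Adam3, Hspa2 and Serf1 also missed the threshold with no filter on low values (adjusted p from 0.0556 to 0.117).

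**Figure D4:**
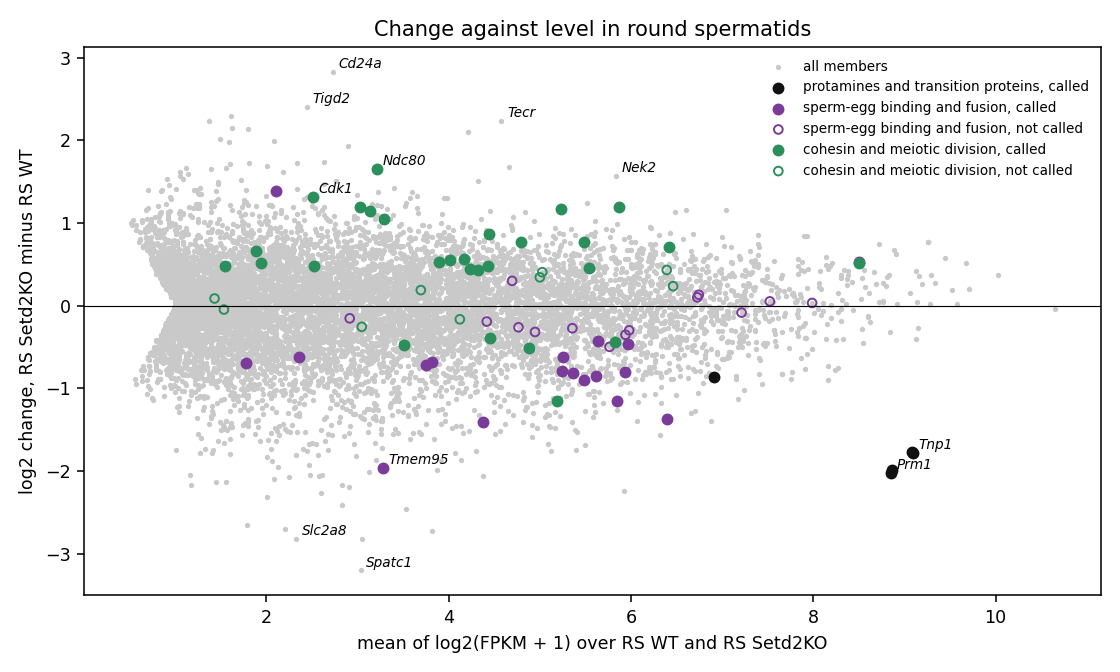
Log2 change in RS Setd2KO against the mean log2(FPKM + 1) of both RS groups for all 9742 genes followed, with 3 lists colored, filled where called and open where not. Of the protamine and transition protein genes, Tnp1, Tnp2, Prm1 and Prm2 fall far below the cloud at high level, from -1.77 to -2.02. Prm3 fell less, by -0.86.

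The share of genes that fell was larger among genes with a larger step up from PD to RS. Genes were classed by the ratio of the mean RS level (over all 4 RS libraries) to the mean PD WT level, each with 1 FPKM added. Of the 647 genes at least 8 times higher in RS, 277 (42.8%) were lower and 16 (2.47%) higher in RS Setd2KO. For the 1610 genes at 2 to under 8 times, 38.9% were lower and 15.9% higher. The balance changed for the 5564 genes within 2-fold, with 20.6% lower and 23.2% higher, and for the 1853 genes over 2 and up to 8 times lower in RS, with 16.0% lower and 28.1% higher. The classes use the RS libraries themselves, so they describe the changes and do not test them.

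Genes were also classed by H3K36me3 over the gene in RS WT. Of the 2627 genes with no RS WT peak 31.8% were lower and 24.8% higher, with a median change of -0.12. Of the 7115 genes with a peak 21.3% were lower and 20.4% higher, with a median of 0.023, so the medians differed by 0.14. Within the genes at least 8 times higher in RS, 43.3% of the 476 without a peak and 41.5% of the 171 with one were lower. In the class within 2-fold, 23.03% without and 20.0% with a peak were lower, while 35.2% and 20.3% were higher. Of the 12 largest falls, Slc2a8, Mxra8 and Noxred1 had over 90% of the gene covered in RS WT, while Nt5c and Znrf4 had no peak. By level, the share lower without a peak against that with at least 75% of the gene covered was 30.4% against 24.2% under 5 FPKM, 33.7% against 20.2% at 5 to under 20 FPKM, 37.0% against 13.0% at 20 to under 100 FPKM and 19.8% against 6.53% from 100 FPKM. Under 5 FPKM 34.7% of genes without a peak and 22.4% of covered genes were higher, and the medians were 0.045 and 0.036. Genes with a span under 2 kilobases were lower in 31.2% of 445 cases and genes of at least 50 kilobases in 21.8% of 2398.

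**Figure D5:**
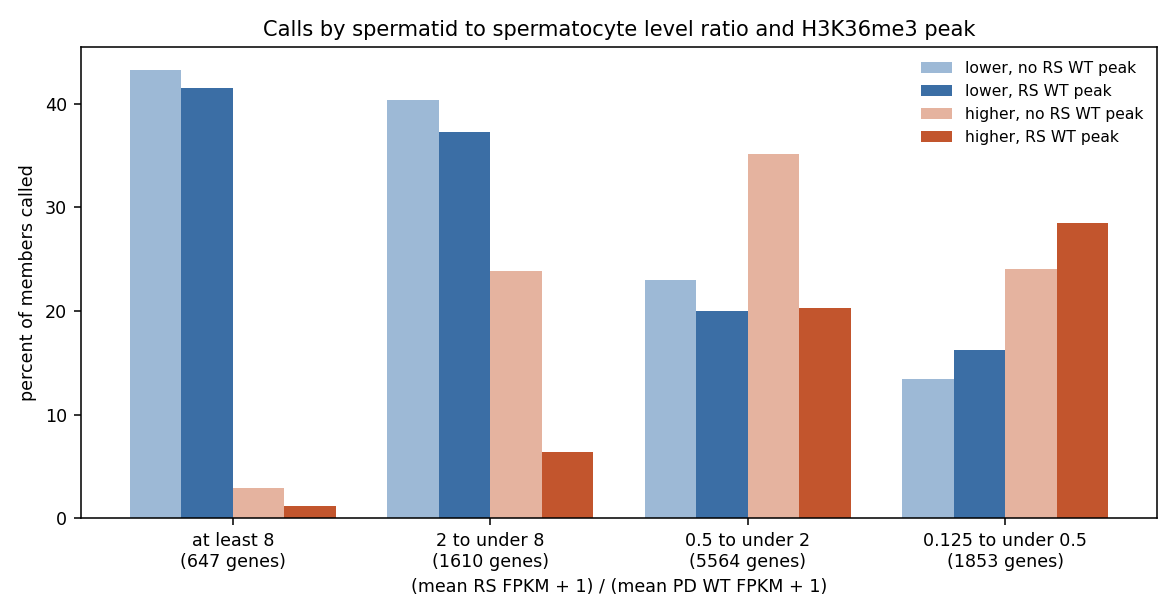
Percent of genes called lower (blues) or higher (oranges) in RS Setd2KO, by the ratio of RS to PD WT level and by whether an RS WT H3K36me3 peak overlapped the gene. Among genes at least 8 times higher in RS, the lower share is 43.3% without and 41.5% with a peak.

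The change in RS was set against that in PD by an interaction contrast in the same fit. It was higher in RS for 795 genes (8.16%) and lower in RS for 2642 genes (27.1%), and 23.1% of these calls were higher. The median difference was -0.14, so a gene counts as lower from that offset, and the split depended on scaling: 42.4% of 4035 calls were higher in RS with upper-quartile scaling (median 0.0049) and 52.2% of 3993 with quantile normalization (median 0.062). Tnp1 and Tnp2 differed by -1.29 ± 0.27 and -1.37 ± 0.26 (SE), Prm1 by -1.22 and Prm3 by -1.85, while Prm2 (-0.80, adjusted p = 0.06) and Acrbp (0.61, adjusted p = 0.063) missed the threshold. A difference can come from either cell type. Prm3 rose in PD Setd2KO, from a mean of 4.04 to 9.38 FPKM (0.99, limma adjusted p = 0.0055), and fell by -0.86 in RS. Of the 10 round spermatid markers 9 were lower in this contrast, but 2 were lower in RS. Their PD sums were 74.5 and 107 FPKM (WT) against 204 and 134 FPKM (Setd2KO). Spatc1 differed by -2.66, Tmem95 by -2.10 and Pdilt by -2.30. Of the list of cohesin and meiotic division 17 genes were higher and 4 lower in RS; Ndc80 differed by 1.65, and in PD it was at 14.7 FPKM in both genotypes (log2 change -0.0019). Tecr changed alike in sign in both cell types, by 2.44 in PD, and Mxra8 fell by 3.20 in PD.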

How the data were processed

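Poly(A) RNA-seq came as tables of FPKM made by the authors with CASAVA, TopHat2, Cufflinks and Cuffdiff on mm9, as the submitters' processing notes list them without versions; the library kit was directional, per the labels. H3K36me3 came as peak lists with a score for each peak, deposited by the authors, 1 list per cell type and genotype. Bowtie and bedtools are named for the series in the same notes. Other steps are not given in the sources used here. Input libraries, 1 per genotype, were present for PD and not for RS, and they were not analysed here.

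The 11452 genes whose mean reached 1 FPKM in any of the 4 RNA groups entered a fit of log2(FPKM + 1) with limma 3.58.1 in R 4.3.3, with an intensity trend and 1 mean per group over all 8 libraries. The spread had 4 residual and 6.92 prior degrees of freedom. P-values were adjusted by Benjamini-Hochberg over all genes tested, two-sided, and genes were called at adjusted p under 0.05. A fold change on this scale understates the change of low genes. The fit was tested on simulated data with independent noise in each library, which cannot show whether the spread of these libraries is technical. Depth was worked back from FPKM steps: with a tolerance of 0.03, all 296 followed genes of span up to 1500 bases gave whole reads, and 1 did after scrambling. A count test was not run, since FPKM are not counts.

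The genes followed and the 46 lists were chosen with earlier results of these data known, so list counts are descriptions beside the same shares over all genes. Genes named were Setd2, Acrbp, the protamine and transition protein genes, the 12 largest log2 changes per direction with no overlap between groups and a higher group mean of 5 FPKM or more, the 8 largest FPKM differences per direction, and up to 4 called members per list with the largest change; clone-named genes kept their place unprinted, and some genes that the rule names are not reported here. Other genes named are marked as such or stand in a list count. Peaks were assigned to a gene by an overlap of at least 1 base. Gene intervals differed between the RS tables for 525 genes, and 265 genes shared all values with another gene. Alternatives covered the pseudocount, the filter, the scaling, the fit and each library left out.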

Additional observations from a re-analysis of the deposited data

Results flagged for a closer look

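These genes differed between cell types in the interaction contrast (log2 change in RS minus that in PD, adjusted p under 0.05 with limma), on a scale where the median of all genes followed was -0.14. The change was more negative in RS for Prm1 (-1.22), Prm3 (-1.85), Tnp1 (-1.29), Tnp2 (-1.37), Spatc1 (-2.66), 4930544D05Rik (-1.64), Tas1r1 (-2.22), Alkbh7 (-1.69), Gm5767 (-2.08), Znrf4 (-2.38) and Noxred1 (-2.35). It was more positive in RS for Setd2 (0.74), Mxra8 (0.73), Cd24a (1.31), Tigd2 (1.17), Dcn (0.97), Myl9 (1.54), Fgf12 (1.11), Rnls (1.84), Hey1 (1.09), Ppfibp2 (1.26), Jakmip2 (1.04) and Pgf (0.67). Mxra8 fell in both cell types, and its positive difference is that between a larger fall in PD and a smaller fall in RS. The negative difference of Prm3 joins a rise in PD (0.99) and a fall in RS (-0.86). With upper-quartile scaling the median moved to 0.0049.

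Genes on the X and Y chromosomes are outside the genes followed. Of the 368 that reached a mean of 1 FPKM in either RS group, 131 were higher and 54 lower in RS Setd2KO. Together 50.3% were called, and the median log2 change was 0.23. Over the autosomal genes followed, 21.6% were higher and 24.1% lower, with a median of -0.0029.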

How the results depend on the processing

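Limits: with 2 libraries per group the spread is known from few samples, and the 187 named genes were refitted under 13 alternatives, which do not include the 2-fold rule, the mean over the 4 RS libraries or the shared-value filter: 137 kept call and direction in all 13, 50 lost the call at least once and 0 reversed. The genes called between RS Setd2KO and RS WT numbered 4037 to 5205 under the pseudocount, filter, scaling, trend, separate RS fit and block alternatives, against 4452, with 41.1% to 53.3% of calls higher over all alternatives on adjusted p alone. A change of at least 2-fold, a rule added after the data were seen, left 611 genes, 194 higher and 417 lower. Leaving out an RS library gave 2728 to 3794 calls, with 1137 to 1558 higher and 1514 to 2236 lower; the lowest came without RS WT replicate 1, except for the lower calls, where it was RS Setd2KO replicate 1. Leaving out any of the 8 libraries gave 2486 to 3870 calls for the RS effect minus the PD effect, with 462 to 1488 higher and 2005 to 3086 lower in RS; the higher calls numbered 1488 without PD WT replicate 1, 523 without PD Setd2KO replicate 1, 462 without RS WT replicate 1 and 505 without RS Setd2KO replicate 1. The higher calls of that contrast numbered 1709 with upper-quartile scaling and 2086 with quantile normalization; the median of that contrast moved from -0.14 to 0.0049 and 0.062, and the cause of the added calls was not tested. The median change of genes with a peak minus that of genes without was 0.14, and 0.16 when most of the gene had to be covered. The replicate numbers did not pair the libraries, with a correlation of deviations of -0.14 in RS and -0.074 in PD; a replicate block gave 4208 calls (1946 higher, 2262 lower) and 3248 for the RS effect minus the PD effect. Crossed numbers as a block, added after the data were seen, gave 4268 calls.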

Other observations

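Counts for other gene families in RS follow, beside 21.6% higher and 24.1% lower over all genes followed. Of 186 Zfp genes, which encode zinc finger proteins, 47 were higher (25.3%) and 51 lower (27.4%), near those shares. Zfp81 was at 4.52 and 4.09 FPKM in RS WT against 0.58 and 0.91 FPKM in RS Setd2KO (-1.61), and Zfp106 changed by -1.49. Of 32 kinesins, the microtubule motors, 11 were higher and 7 lower; Kif20b, a motor of cytokinesis, was at 3.03 and 3.01 FPKM against 8.71 and 6.79 FPKM (1.11), and Kif5c, a transport motor, at 1.93 and 1.82 FPKM against 0.35 and 0.44 FPKM (-1.04). Of 31 fatty acid elongation and lipid genes 9 were higher and 10 lower; beside Tecr, Agpat2, an acyltransferase of phosphatidic acid synthesis, was at 16.3 and 15.5 FPKM against 6.02 and 5.99 FPKM (-1.27), and Acsl5, an acyl-CoA synthetase, changed by -1.39.

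These further counts stand beside the same shares, 21.6% higher and 24.1% lower over all genes followed. Of 43 DnaJ cochaperone genes 10 were lower and 5 higher, with Dnajb8 at 78.7 and 71.8 FPKM against 26.4 and 31.8 FPKM (-1.35). Of 17 tubulins 4 were higher and 4 lower, with Tuba8 at -1.07. Of 27 mitochondrial carriers of the SLC25 family 7 were higher and 5 lower, with Slc25a10, the dicarboxylate carrier, at -1.78. Of 31 replication-type histone genes 6 were higher and 2 lower, of 17 unfolded protein response genes 2 were higher and 3 lower, and of 11 housekeeping genes 2 were higher and 1 lower. Of 7 interferon and MHC class I genes 1 was higher and 3 lower, and H2-K1 was at 5.53 and 4.58 FPKM against 1.56 and 1.1 FPKM (-1.38). Without RS WT replicate 1 the higher counts were 21 for Zfp genes, 4 for kinesins and 2 for lipid genes, and without RS Setd2KO replicate 1 the lower counts were 30, 4 and 4. Without RS WT replicate 1 the replication-type histone list had 1 higher gene (also 1 without RS Setd2KO replicate 1), the DnaJ list had 5 lower and 2 higher, the tubulin list 2 higher, and the SLC25 list 4 higher and 3 lower; the unfolded protein response list had 1 lower gene without RS WT replicate 1 or RS Setd2KO replicate 1.

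Tnp1 and Tnp2, on different chromosomes, had close values in all 8 RNA libraries: 37.1 and 38.2 FPKM in PD WT replicate 1, 35.2 and 38.0 FPKM in PD WT replicate 2, 31.5 and 34.6 FPKM in PD Setd2KO replicate 1 and 20.6 and 23.5 FPKM in PD Setd2KO replicate 2, beside the RS values in the report. Their recovered read numbers differed, at 38591 for Tnp1 and 49853 for Tnp2 in RS WT replicate 1.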
